A study of Mus musculus with 15 samples.

Results

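RNA from the quadriceps (Quad) of mice that ran on wheels (Ex) was set directly against RNA from the Quad of mice that overexpress the coactivator PGC1α in muscle (mTg). The Ex mice were wild type and carried no transgene, and per the study's methods they could run on wheels at will over weeks, and tissue was taken hours after they last ran. The mTg mice carried a transgene for PGC1α under the muscle creatine kinase promoter and were sedentary, so that the coactivator was raised in muscle fibers without training. Quad of sedentary wild-type mice (controls) served as a reference level and were compared with neither group by a test. All 3 groups had the C57BL/6 background per the labels, per the study's methods mice were male, and each group was represented by 5 libraries of polyadenylated RNA. The comparison thus rested on 10 of the 15 libraries of the series, and its members were the 11704 of 12529 listed genes whose mean was at least 0.5 FPKM (fragments scaled by transcript length and library size) over these 10 libraries, 825 genes being below. It asks how far the muscle transcriptome of a trained mouse differs from that of a mouse given only the transcriptional coactivator that training is known to induce. Wheel access, activity and genotype differed together between Ex and mTg. Per the study's methods, so did the source of the mice and with it the litter, Ex mice being purchased and mTg mice coming from a separate transgenic line. Housing and the time of day of tissue collection may differ as well, and these cannot be told apart here. The labels do not state that each library came from a separate mouse, so p-values measure only the spread between these libraries, part of which may be technical.

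Gene-assigned reads, recovered from the deposited values, numbered 15585560 ± 995646 in Ex and 13329846 ± 1386902 in mTg (n = 5 per group, SD), a difference past the test (exact two-sided permutation test, p = 0.0159, adjusted p = 0.0238 over 3 library-level tests). The top 10 genes by abundance took up 29.4% ± 0.873 of all FPKM in Ex and 23.6% ± 0.661 in mTg (p = 0.00794, the smallest this exact test can give, adjusted p = 0.0238), against 32.9% ± 0.553 in controls. The summed FPKM itself was 435848 ± 13098 in Ex and 457623 ± 23289 in mTg (p = 0.119, exact permutation test). Of the 12 markers that define skeletal muscle, all were measured, and their summed level lay between 82100 and 91714 FPKM in Ex, between 70237 and 83149 in mTg and between 89607 and 101310 in controls. In what follows, fold changes are Ex over mTg on the log2(FPKM + 1) scale with their standard error, which understates the difference of weakly expressed genes, levels are mean ± SD over 5 libraries, and adjusted p-values come from limma with Benjamini-Hochberg adjustment over the 11704 genes and a threshold of 0.05.

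PGC1α, encoded by *Ppargc1a*, binds no DNA itself. It is recruited to promoters by transcription factors, chiefly the estrogen-related receptors (ERRs), NRF1 and PPARs, and turns on genes of the respiratory chain, the TCA cycle and fatty acid oxidation. Running also engages signals that do not pass through this coactivator, such as calcium, mechanical load, AMPK and the motor nerve, and sarcomere genes that respond to load and nerve activity are classically read through MEF2, serum response factor, which binds the CArG box, and TEAD factors, which bind the MCAT element.

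*Ppargc1a* itself served as the check of the labels. It measured 6.39, 4.87, 6.07, 7.34 and 6.87 FPKM in Ex replicates 1 to 5, against 50.1, 56.8, 52.1, 53.8 and 56.4 FPKM in mTg replicates 1 to 5 and 5.45, 6.46, 12.5, 8.01 and 5.06 FPKM in controls. Every mTg library was above every Ex library, with a mean 8.54-fold that of Ex (log2 fold change -2.92 ± 0.088, adjusted p = 5.90e-11). The gene lies at chromosome 5, 51454250 to 51567726 (GRCm38), and its value adds reads of the transgene to those of the endogenous gene.

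The proximal promoters of a few genes are shown because they carry the letters of the elements named above in genes that lay on opposite sides of the comparison. Sequences are from RefSeq (GRCm38.p6, the assembly also called mm10), written 5′ to 3′ on the strand of the gene, with the matched element in capitals. *Sdhd*, a membrane subunit of complex II, and *Acsl6*, which activates long-chain fatty acids, were lower in Ex. Both hold the ERR response element TCAAGGTCA on the opposite strand, so that it reads as TGACCTTGA here. In *Sdhd* it lies 36 to 44 bases after the start (chr9:50603800-50603823, minus strand), and in *Acsl6* 159 to 167 bases before it (chr11:54303624-54303823, plus strand).
Sdhd: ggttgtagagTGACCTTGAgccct
Acsl6: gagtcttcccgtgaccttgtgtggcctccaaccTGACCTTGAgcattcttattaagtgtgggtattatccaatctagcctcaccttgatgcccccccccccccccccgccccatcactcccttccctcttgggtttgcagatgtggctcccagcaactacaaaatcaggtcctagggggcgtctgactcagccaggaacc
*Actc1*, encoding cardiac actin, and *Fhl1*, encoding a LIM domain protein of the sarcomere, were higher in Ex and hold a CArG box, 38 to 47 bases before the start in *Actc1* (chr2:114052876-114053075, minus strand) and 93 to 102 bases before it in *Fhl1* (chrX:56779483-56779682, plus strand). Positions are counted from the start that RefSeq gives for each window, which in *Fhl1* is an internal one, 47.9 kb after the first start of the gene in GENCODE, and in *Actc1* lies 673 bases after it.
Actc1: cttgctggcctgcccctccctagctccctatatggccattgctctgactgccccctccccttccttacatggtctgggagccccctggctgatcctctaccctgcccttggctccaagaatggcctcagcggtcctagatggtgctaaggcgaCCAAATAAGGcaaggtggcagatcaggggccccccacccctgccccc
Fhl1: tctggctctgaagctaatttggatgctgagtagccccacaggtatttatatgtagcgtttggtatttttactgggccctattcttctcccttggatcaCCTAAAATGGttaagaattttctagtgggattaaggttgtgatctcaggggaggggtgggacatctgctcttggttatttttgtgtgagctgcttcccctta
*Myoz2*, encoding the Z-disc protein calsarcin 1, and *Srpk3*, encoding a muscle SR protein kinase, were higher in Ex as well and hold a MEF2 element, 24 to 33 bases before the start in *Myoz2* (chr3:123034988-123035187, minus strand) and 58 to 67 bases before it in *Srpk3* (chrX:73774205-73774404, plus strand).
Myoz2: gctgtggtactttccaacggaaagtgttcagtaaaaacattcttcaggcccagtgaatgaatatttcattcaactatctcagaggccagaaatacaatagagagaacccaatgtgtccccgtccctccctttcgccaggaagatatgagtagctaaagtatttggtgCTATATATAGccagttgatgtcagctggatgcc
Srpk3: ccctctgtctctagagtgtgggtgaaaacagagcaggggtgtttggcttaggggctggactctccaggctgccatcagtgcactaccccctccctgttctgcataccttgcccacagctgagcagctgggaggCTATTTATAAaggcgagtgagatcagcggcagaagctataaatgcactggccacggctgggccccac

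These letters were searched on both strands in the 300 bases around each start (250 before and 50 after), which could be read for 8939 of the tested genes, and a gene with several starts was counted once if any window held the letters. The ERR response element was found in 7 of 617 genes lower in Ex by over 1.5-fold (1.14%) and in 2 of 356 genes higher in Ex by over 1.5-fold (0.562%), against 29 of all genes read (0.324%). By list, no complex I (of 32 read), complex IV (of 17), TCA cycle (of 21) or mitochondrial ribosomal protein gene (of 49) held it, 1 gene each did of complexes II and III (of 9), ATP synthase (of 14) and fatty acid oxidation (of 21), and 2 of 20 slow fiber genes did. Its core AGGTCA, which the longer element contains, was found in 20.7% of those lower and 16.6% of those higher, against 14.9% of all. The MEF2 element was found in 16 of those lower (2.59%) and 17 of those higher (4.78%), against 223 in all (2.49%). The CArG box was present in 1.94% of those lower and 3.09% of those higher, against 1.61% of all, and the MCAT letters CATTCC in 14.9% of those lower and 17.1% of those higher, against 14.3% of all. These shares are descriptions of letters in a short window and were not tested.

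Of the 11704 genes, 2406 were higher in Ex than in mTg (20.6% of those tested) and 2426 were lower (20.7%), together 4832 (41.3%). Differences past 1.5-fold were fewer on the higher side, with 490 genes higher in Ex (4.19%) and 788 lower (6.73%), and 148 genes were higher and 197 lower by over 2-fold. For 3401 genes (29.1%) the 5 Ex values lay all above or all below the 5 mTg values, 1650 above and 1751 below. The median log2 fold change over all genes was 0.014. With every library brought to an equal sum (TPM), this median was 0.068, and 3029 genes were higher in Ex against 1910 lower (61.3% higher, against 49.8% as deposited). Counts of members given below are to be read against these shares. In several lists, counts of 2 or fewer members moved by 1 or 2 genes when a library was left out, and larger counts that moved by over 1.5 times are given with that library. The control mean was nearer to the Ex mean than to the mTg mean for 2020 of the 2406 genes higher in Ex (84.0%) and for 2194 of the 2426 genes lower in Ex (90.4%), a description for which no test was made. It lay above both group means for 1198 of those higher (49.8%) and below both for 1297 of those lower (53.5%). For these genes Ex and mTg thus lay on the same side of controls. Of the called genes, 85 of those higher in Ex reached the minimum of 0.5 FPKM through their Ex mean alone and 49 of those lower through their mTg mean alone, and 5 of these belong to the lists below, *Pax7*, *Nr4a3*, *Hdac9*, *Kcnn3* and *Ncmap*.

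**Figure D1:**
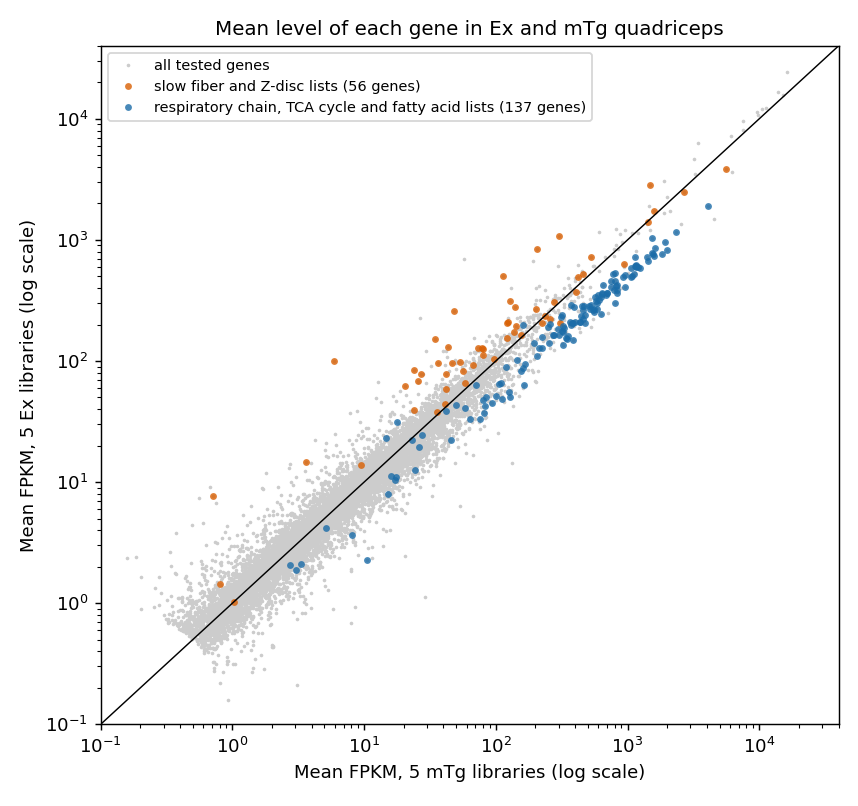
Mean level of each tested gene in Ex against mTg, both as FPKM on a log axis, 5 libraries per group, with the diagonal marking equal levels. Colored points are the slow fiber and Z-disc lists (56 genes, of which 47 had the higher mean in Ex) and the respiratory chain, TCA cycle and fatty acid oxidation lists (137 genes, of which 134 had the lower mean in Ex).

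The largest positive difference was that of *Sln*, which encodes sarcolipin, an inhibitor of the calcium pump of the sarcoplasmic reticulum. It measured 212, 70.9, 72.7, 87.8 and 55.8 FPKM in Ex, against 3.73, 10.6, 4.85, 5.57 and 4.77 FPKM in mTg and 6.22, 3.70, 3.15, 6.70 and 2.72 FPKM in controls (log2 fold change 3.77 ± 0.31, adjusted p = 4.28e-07). Ex replicate 1 was far above the other Ex libraries, and the lowest Ex library was still above the highest mTg library. *Sln* lies at chromosome 9, 53850164 to 53854560 (GRCm38).

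*Actc1* measured 185, 1222, 1048, 744 and 311 FPKM in Ex, against 46.2, 37.8, 47.1, 92.2 and 63.7 FPKM in mTg and 437, 249.5, 269, 511 and 303 FPKM in controls (log2 fold change 3.33 ± 0.44, adjusted p = 3.65e-05). The Ex libraries spread widely, replicates 1 and 5 being the lowest, yet none overlapped mTg. *Smox*, encoding spermine oxidase, which breaks down the polyamine spermine, measured 120, 249.6, 231, 292 and 248 FPKM in Ex and 18.1, 16.6, 49.0, 28.1 and 21.6 FPKM in mTg (log2 fold change 3.10 ± 0.27), against 158 to 507 FPKM in controls. Its Ex and control ranges overlapped, while all mTg libraries were lower.

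*Prkag3*, encoding the γ3 regulatory subunit of AMPK found in fast glycolytic muscle, was at 67.7 ± 6.23 FPKM in Ex and 12.8 ± 2.71 FPKM in mTg (log2 fold change 2.33 ± 0.11). *Csrp3*, encoding muscle LIM protein of the Z-disc, measured 447, 212, 137, 379 and 125 FPKM in Ex, against 36.0, 20.5, 57.4, 64.2 and 63.5 FPKM in mTg (log2 fold change 2.33 ± 0.37), and *Myl2*, the slow regulatory myosin light chain, 413, 517, 449, 625 and 498 FPKM in Ex, against 189, 31.2, 103, 124 and 117 FPKM in mTg (log2 fold change 2.33 ± 0.34). For both genes mTg replicate 2 was the lowest library, and no Ex library overlapped mTg. *Myoz2* was at 152 ± 19.9 FPKM in Ex and 34.3 ± 9.72 FPKM in mTg (log2 fold change 2.17 ± 0.19), and *Fhl1* at 846 ± 208 FPKM in Ex and 204 ± 46.0 FPKM in mTg (log2 fold change 2.04 ± 0.17).

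The other 7 of the 15 genes with the largest positive differences had a mean below 10 FPKM in mTg. They were *Slc38a4*, an amino acid transporter (34.2 to 46.4 FPKM in Ex and 4.32 to 12.7 in mTg), *Mss51* (13.7 to 32.6 FPKM in Ex and 3.796 to 4.83 in mTg), *1700001O22Rik* (5.47 to 12.9 FPKM in Ex and 0.468 to 1.13 in mTg), the serine protease gene *Htra4*, *Odf3l2*, the muscle gene *Igfn1* and the cytochrome P450 gene *Cyp4f39*. Their log2 fold changes lay between 2.08 ± 0.19 for *Mss51* and 2.55 ± 0.17 for *1700001O22Rik*. The lowest control mean among these 7 was 5.95 ± 0.705 FPKM, that of *Cyp4f39*, so that the low values of this set were those of mTg.

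On the other side, the largest negative difference was that of *BC049352*, a gene with no assigned function in the sources used here, at 2.39, 0.962, 0.816, 0.533 and 0.933 FPKM in Ex, against 29.3, 30.5, 28.9, 30.2 and 26.8 FPKM in mTg and 0.830, 0.961, 0.624, 0.846 and 0.914 FPKM in controls (log2 fold change -3.88 ± 0.16, adjusted p = 1.87e-09). The Ex and control libraries were near the lower limit of what was analysed, and the mTg libraries were alike. *Adig*, encoding adipogenin, measured 5.59, 5.89, 4.73, 5.57 and 4.32 FPKM in Ex, against 80.7, 70.5, 61.3, 58.5 and 63.2 FPKM in mTg and 4.71, 6.38, 6.73, 9.19 and 8.16 FPKM in controls (log2 fold change -3.44 ± 0.10). *BC048679* was at 14.5 ± 3.88 FPKM in Ex and 133 ± 32.5 FPKM in mTg (log2 fold change -3.11 ± 0.18).

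*Ppif*, encoding cyclophilin D of the mitochondrial permeability transition pore, measured 25.2, 25.4, 27.5, 23.4 and 26.03 FPKM in Ex, against 108, 96.7, 108, 105 and 101 FPKM in mTg and 26.1, 25.6, 26.4, 27.96 and 31.9 FPKM in controls (log2 fold change -1.98 ± 0.062). *Cds1*, which makes CDP-diacylglycerol, a precursor of cardiolipin and phosphatidylinositol, was at 0.680 ± 0.0726 FPKM in Ex and 7.96 ± 0.663 FPKM in mTg (log2 fold change -2.41 ± 0.071), and *Sco2*, encoding a copper chaperone of cytochrome c oxidase, at 2.25 ± 0.502 FPKM in Ex and 10.4 ± 1.26 FPKM in mTg (log2 fold change -1.82 ± 0.11). *Sco2* shares exon sequence with a protein-coding neighbour on the same strand, so its value may hold reads of that neighbour. The remaining genes of this set were the receptor genes *Paqr4* (-2.62 ± 0.068), *P2ry1* (-1.90 ± 0.11), for the receptor of extracellular ADP, and *Cntfr* (-1.94 ± 0.21), for the ciliary neurotrophic factor receptor, the potassium channel gene *Kcng4* (-1.92 ± 0.078), *Snph* (-1.83 ± 0.085), which anchors axonal mitochondria, *Plbd1*, *Hsbp1l1* and the solute carrier gene *Slc15a5*. All 5 libraries of Ex lay below all 5 of mTg for each of the 15 genes, as the choice of these genes required. Exons of *Ppif*, *P2ry1* and *Paqr4*, as well as those of *Myl2*, *Mb*, *Htra4*, *Ckm*, *Ckmt2* and *Acsl6*, overlap a gene on the opposite strand (GENCODE M21), and the sources used here do not say if counting used the strand, so that reads of these neighbours may be in their values.

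**Figure D2:**
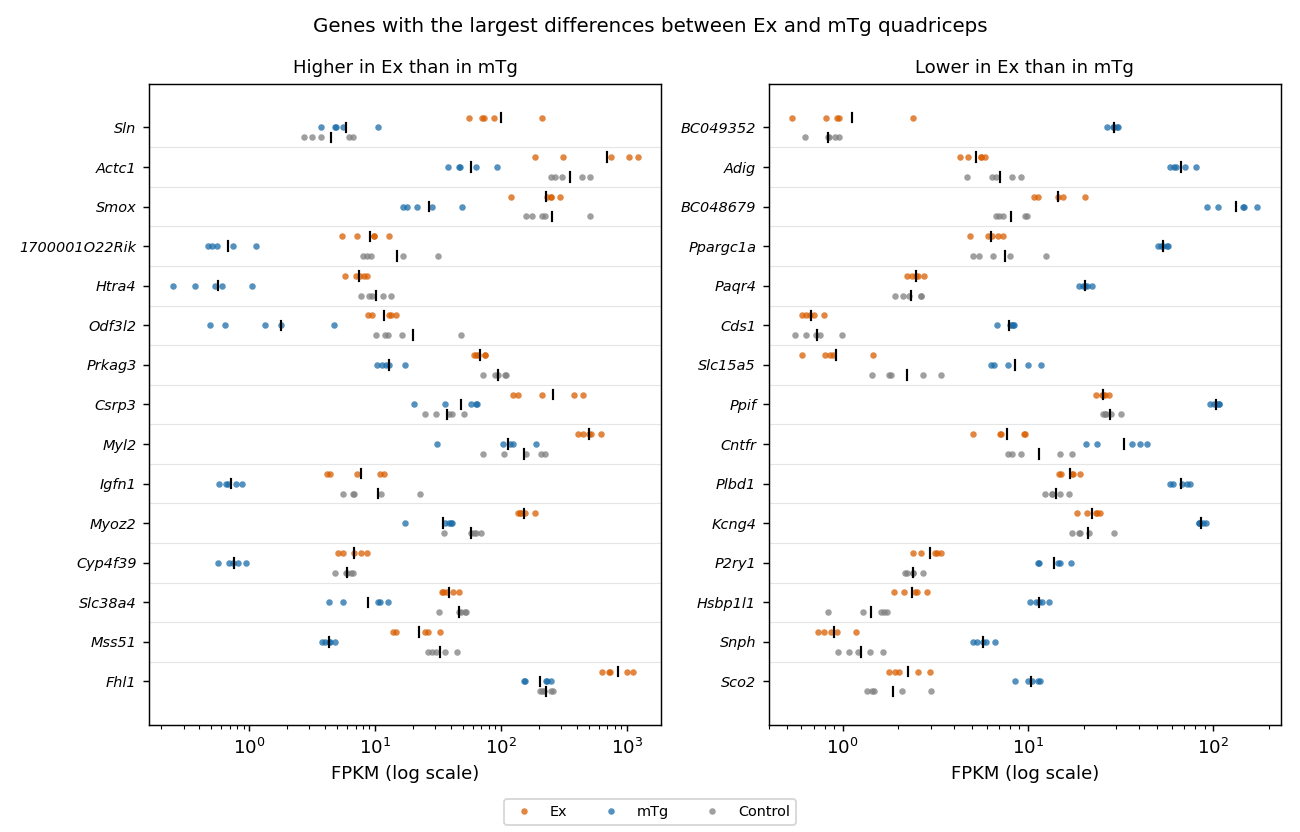
FPKM on a log axis for the 15 genes with the largest positive and the 15 with the largest negative log2 fold change among called genes whose groups did not overlap, with 1 point per library for Ex, mTg and controls and a black bar at each group mean. *Sln* spans 55.8 to 212 FPKM in Ex and 3.73 to 10.6 in mTg, and *Ppargc1a* 4.87 to 7.34 FPKM in Ex and 50.1 to 56.8 in mTg.

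By absolute level the largest difference was in *Acta1*, skeletal actin, with 23850, 26109, 25018, 24570 and 23265 FPKM in Ex, against 17541, 15067, 16411, 16562 and 15739 FPKM in mTg (log2 fold change 0.60 ± 0.074), every Ex library above every mTg library. *Ckmt2*, the creatine kinase of sarcomeric mitochondria, was at 1581, 1465, 1453, 1580.4 and 1376 FPKM in Ex, against 4284, 4302, 5054, 4482 and 4448 FPKM in mTg (log2 fold change -1.60 ± 0.072). The fast essential light chain *Myl1* (6372 ± 725 FPKM in Ex and 3432 ± 286 in mTg, log2 fold change 0.89 ± 0.092), the α-tropomyosin gene *Tpm1* (4655 ± 427 FPKM in Ex and 3222 ± 224 in mTg, log2 fold change 0.53 ± 0.082) and *Pvalb*, encoding the calcium buffer parvalbumin of fast fibers (9665 ± 1059.7 FPKM in Ex and 7469 ± 799 in mTg, log2 fold change 0.37 ± 0.10), were higher in Ex. The mitochondrial ADP/ATP carrier *Slc25a4* (3613 ± 188 FPKM in Ex and 6178 ± 612 in mTg, log2 fold change -0.77 ± 0.081) and the ATP synthase β subunit *Atp5b* (1902 ± 70.5 FPKM in Ex and 4073 ± 252 in mTg, log2 fold change -1.10 ± 0.067) were lower, as was *Mb*, myoglobin (3888 ± 546 FPKM in Ex and 5587 ± 648 in mTg, log2 fold change -0.53 ± 0.11), whose Ex and mTg values overlapped. The last members of the 10 were *Ckm* and *Tnni2*, each at log2 fold change 0.26 (adjusted p = 0.0274 and 0.0428), and both lost the call when any of Ex replicates 2, 3 and 5 or mTg replicates 2, 4 and 5 was left out, with no minimum or with the replicate block, and *Tnni2* also with median-of-ratios scaling, at log2 fold changes of 0.19 to 0.26 throughout these settings.

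Controls lay strictly between the groups for few genes, 31 of those higher in Ex and 29 of those lower. The phosphatase gene *Dusp18* measured 10.2, 8.57, 8.98, 6.75 and 9.27 FPKM in Ex, against 1.44, 1.55, 1.35, 2.17 and 1.98 FPKM in mTg and 5.14, 4.06, 6.47, 6.38 and 5.01 FPKM in controls (log2 fold change 1.85 ± 0.11). *Srpk3* was at 29.4 to 33.1 FPKM in Ex, 7.58 to 10.9 in mTg and 25.3 to 27.8 in controls. *Myl6b*, a slow and non-muscle essential light chain, was at 12.3 to 17.7 FPKM in Ex, 2.64 to 4.30 in mTg and 4.96 to 6.61 in controls. *Amotl1*, encoding an angiomotin of the Hippo pathway (1.15 ± 0.062), *Pcp4l1* (1.37 ± 0.076) and *Tppp3*, a tubulin-binding protein (1.16 ± 0.13), followed the same order. In the opposite order stood *Slc40a1*, encoding ferroportin, the cellular iron exporter, with 6.86 to 9.32 FPKM in Ex, 16.4 to 25.5 in mTg and 12.5 to 15.2 in controls (log2 fold change -1.23 ± 0.11). *Acsl6* was at 7.27 to 8.32 FPKM in Ex, 14.1 to 16.3 in mTg and 8.39 to 9.92 in controls. *2310065F04Rik* (-1.45 ± 0.11), *Cmss1* (-1.23 ± 0.087), the myelin and lymphocyte protein gene *Mal* (-0.97 ± 0.078) and *Kctd9* (-0.95 ± 0.094) completed that set.

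Partners and targets of the coactivator were then examined in a list of 26 coactivators and nuclear receptors, of which 8 were higher in Ex and 8 lower. *Esrra*, encoding ERRα, the receptor best known as the partner of PGC1α, measured 51.4, 52.9, 51.1, 49.0 and 53.6 FPKM in Ex, against 117, 103, 123, 106 and 107 FPKM in mTg (log2 fold change -1.09 ± 0.064). *Esrrb*, encoding ERRβ, was at 2.51 to 3.82 FPKM in Ex and 9.97 to 11.5 in mTg (log2 fold change -1.61 ± 0.088), while *Esrrg*, encoding ERRγ, was higher in Ex, at 8.78 ± 1.14 FPKM against 6.08 ± 1.16 FPKM in mTg (log2 fold change 0.47 ± 0.11). The 3 ERR genes thus did not move as a group. *Perm1*, a muscle regulator induced by PGC1 and ERR, was at 76.4 to 88.7 FPKM in Ex and 192 to 229.5 in mTg (log2 fold change -1.31 ± 0.07), and *Ppara*, encoding the fatty acid receptor PPARα, was lower by less (log2 fold change -0.39 ± 0.11). The thyroid hormone receptor gene *Thra* (0.55 ± 0.095) and the retinoid X receptor genes *Rxra* (0.45 ± 0.066) and *Rxrg* (0.38 ± 0.073) were higher in Ex, and the remaining gene of that family, *Rxrb*, named after its value was seen, was lower (-0.24 ± 0.067). *Ppargc1b*, the close relative of *Ppargc1a*, was at 2.54 ± 0.420 FPKM in Ex and 2.63 ± 0.560 FPKM in mTg (adjusted p = 0.857).

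Genes of the respiratory chain were lower in Ex. All 36 tested members of complex I were lower (median log2 fold change -0.88), as were all 14 of complexes II and III (-1.01), 19 of 22 of complex IV (-0.90) and 14 of 16 of ATP synthase (-0.91), and no member was higher. The complex I subunit *Ndufs8* measured 131, 148, 140.1, 123 and 142 FPKM in Ex, against 353, 286, 354, 314 and 316 FPKM in mTg (log2 fold change -1.24 ± 0.077). *Sdhb*, the iron-sulfur subunit of complex II, measured 472, 525, 494, 463 and 500.2 FPKM in Ex, against 1120.3, 1006, 1092, 1019 and 1079 FPKM in mTg (log2 fold change -1.11 ± 0.063), and *Sdhd* lay at 255 to 269 FPKM in Ex and 497 to 600 in mTg (-1.05 ± 0.063). In each case the groups lay far apart in relation to their spread. *Uqcrc1* of complex III (-1.12 ± 0.069), *Cox4i1* of complex IV (-1.23 ± 0.076), *Cox10*, which makes its heme (-1.03 ± 0.072), *Ndufb10* (-1.22 ± 0.077), *Ndufab1*, the mitochondrial acyl carrier protein (-1.18 ± 0.07), and the ATP synthase subunits *Atp5g1* (-1.39 ± 0.076) and *Atp5a1* (-0.98 ± 0.061) were lower with adjusted p-values of at most 1.06e-07. For comparison within the same scale, *Sdhb* was at 401 to 438 FPKM in controls and *Ndufs8* at 120.4 to 148.

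Genes of the fuel pathways that feed the chain were lower as well. Of 24 tested TCA cycle and pyruvate dehydrogenase genes, 19 were lower in Ex and 2 higher (median -0.86), and of 26 fatty acid oxidation genes 25 were lower and none higher (-0.85). *Dlst* and *Dlat*, E2 subunits of the 2-oxoglutarate and pyruvate dehydrogenases, were lower, *Dlst* at 141 to 162 FPKM in Ex and 355 to 423 in mTg (-1.34 ± 0.067) and *Dlat* at 58.0 to 65.5 FPKM in Ex and 143 to 185 in mTg (-1.35 ± 0.073). Citrate synthase, *Cs*, was at 454 ± 14.3 FPKM in Ex and 804 ± 68.6 FPKM in mTg (-0.82 ± 0.071), and malate dehydrogenase 2, *Mdh2*, was lower (-1.11 ± 0.065). The exceptions that were higher in Ex were *Pdk1*, a kinase that switches off pyruvate dehydrogenase (23.05 ± 1.16 FPKM in Ex and 14.6 ± 1.89 in mTg, log2 fold change 0.63 ± 0.083), and *Pcx*, pyruvate carboxylase (31.2 ± 1.56 FPKM in Ex and 17.9 ± 3.68 in mTg, log2 fold change 0.79 ± 0.11).

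*Acadvl*, very long-chain acyl-CoA dehydrogenase, measured 255, 253, 233, 239 and 235 FPKM in Ex, against 736, 627, 604, 603 and 594 FPKM in mTg and 184, 169.6, 185, 179.6 and 196 FPKM in controls (log2 fold change -1.37 ± 0.071). The carnitine-acylcarnitine carrier *Slc25a20* (-1.32 ± 0.088), *Acadl*, long-chain acyl-CoA dehydrogenase (-1.20 ± 0.075), and *Cpt1b*, which admits fatty acids to the mitochondrion (-0.49 ± 0.085), were lower too. In the list of lipid uptake, storage and lipolysis, 15 of 31 genes were lower in Ex and 3 higher, a higher count that became 5 or 6 without Ex replicate 5 or without mTg replicate 3. The lipid droplet genes *Plin5* (20.7 ± 3.48 FPKM in Ex and 58.8 ± 5.33 in mTg, log2 fold change -1.47 ± 0.11) and *Cidea* (1.84 ± 0.554 FPKM in Ex and 7.93 ± 1.77 in mTg, log2 fold change -1.65 ± 0.15) were lower, whereas *Plin2* (19.3 ± 0.795 FPKM in Ex and 14.6 ± 0.952 in mTg, log2 fold change 0.38 ± 0.063) and *Srebf1*, the regulator of fatty acid synthesis (20.3 ± 4.32 FPKM in Ex and 6.08 ± 1.77 in mTg, log2 fold change 1.60 ± 0.17), were higher. Of 21 genes for branched-chain amino acid and ketone body oxidation, 17 were lower and 2 higher (median -0.41). *Oxct1*, the enzyme that activates ketone bodies, was lower (195 ± 17.04 FPKM in Ex and 395 ± 27.8 in mTg, log2 fold change -1.02 ± 0.075), as were *Hibadh* of valine breakdown (-0.87 ± 0.06) and *Slc16a1*, the transporter MCT1 of lactate and ketone bodies (9.17 ± 0.556 FPKM in Ex and 26.4 ± 2.22 in mTg, log2 fold change -1.43 ± 0.071). *Bdh1*, which interconverts the ketone bodies, was higher (38.5 ± 3.86 FPKM in Ex and 22.5 ± 3.62 in mTg, log2 fold change 0.76 ± 0.10).

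Mitochondrial carriers, import and translation followed the chain with smaller differences. Of 33 SLC25 carriers and import genes, 27 were lower in Ex and 1 higher (median -0.50), and of 57 mitochondrial ribosomal protein genes 50 were lower and none higher (-0.50). *Slc25a3*, the phosphate carrier (-0.92 ± 0.063), *Slc25a11*, the oxoglutarate carrier (-0.98 ± 0.063), *Mrpl37* (-0.94 ± 0.065), *Mrpl19* (-0.90 ± 0.073) and *Mrpl16* (-0.70 ± 0.058) were, with *Slc25a20* (-1.32 ± 0.088), the members of these lists with the smallest p. The exception was *Slc25a25*, a calcium-dependent ATP-Mg/phosphate carrier, with 7.30, 47.8, 33.6, 20.7 and 16.4 FPKM in Ex, against 3.19, 2.92, 3.51, 17.5 and 2.75 FPKM in mTg (log2 fold change 2.002 ± 0.48), where groups overlapped. Among 19 genes that maintain, transcribe and translate the mitochondrial genome, 9 were lower and 1 higher. *Tfam*, the packaging and transcription factor, was at 13.6 ± 0.708 FPKM in Ex and 21.03 ± 3.03 FPKM in mTg (-0.59 ± 0.088), and the elongation factor genes *Tufm* (-1.01 ± 0.06) and *Tsfm* (-0.67 ± 0.076) and the initiation factor gene *Mtif2* (-0.66 ± 0.072) were lower. Of 65 cytosolic ribosomal protein genes, 15 were higher in Ex, a share near that of all genes, and 1 was lower, with *Rpl4* (0.33 ± 0.063), *Rpl10* (0.40 ± 0.082) and *Rpl12* (0.36 ± 0.075) on the higher side and *Rps2* (-0.28 ± 0.063) on the lower. The higher count was 36 with TPM, 9 without mTg replicate 2 or mTg replicate 5 and 31 without mTg replicate 3.

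Enzymes that deal with oxidants were mostly lower in Ex (17 of 28 lower, 4 higher, median -0.34). *Sod2*, the superoxide dismutase of the mitochondrial matrix, measured 70.3, 67.9, 68.3, 67.2 and 67.8 FPKM in Ex, against 238, 219, 173, 168 and 191 FPKM in mTg (log2 fold change -1.51 ± 0.09), and the peroxiredoxins *Prdx5* (-1.30 ± 0.078) and *Prdx6* (-1.08 ± 0.064) were lower. Higher in Ex were glutathione reductase, *Gsr* (0.54 ± 0.072), the cytosolic glutathione peroxidase *Gpx1* (0.41 ± 0.09) and *Keap1*, the inhibitor of NRF2 (0.31 ± 0.069). For myoglobin, heme and iron, 15 of 22 genes were lower in Ex and none higher (-0.51). *Alas1*, the controlling enzyme of heme synthesis, was at 51.8 to 57.7 FPKM in Ex and 117 to 142 in mTg (-1.15 ± 0.07), and the iron-sulfur cluster genes *Iscu* (-1.04 ± 0.084) and *Glrx5* (-1.05 ± 0.085) were lower.

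**Figure D3:**
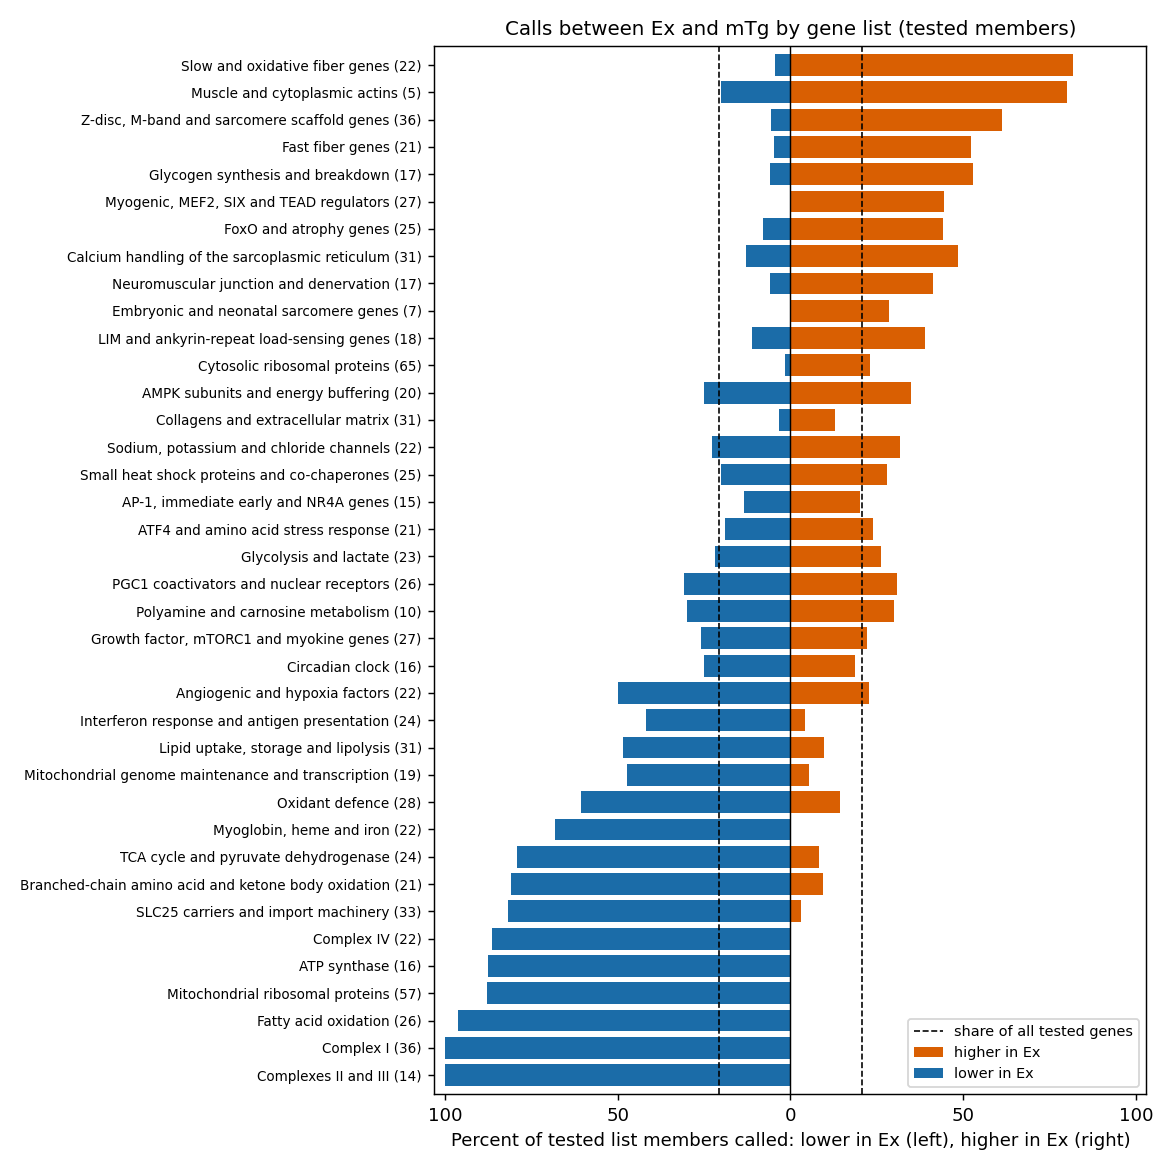
Percent of the tested members of each gene list that were higher (right) or lower (left) in Ex than in mTg by limma at the 0.05 threshold, with list sizes in parentheses and dashed lines at the shares over all 11704 tested genes. All 36 complex I genes were lower, and 18 of 22 slow fiber genes were higher.

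The contractile apparatus ran the other way. Of 22 tested genes of slow and oxidative fibers, 18 were higher in Ex and 1, *Mb*, was lower (median 1.46), and the count higher lay between 15 and 18 when any library was left out. *Myh7*, the slow myosin heavy chain, measured 55.0, 104, 67.9, 88.7 and 78.4 FPKM in Ex, against 54.2, 5.86, 20.3, 31.3 and 24.1 FPKM in mTg and 49.2, 15.5, 43.2, 47.1 and 23.7 FPKM in controls (log2 fold change 1.76 ± 0.40, adjusted p = 0.00311). *Myh2*, the fast oxidative IIa isoform, measured 1298, 984, 1029, 1171 and 896 FPKM in Ex, against 438, 209, 223, 273 and 360.4 FPKM in mTg and 334, 267, 283, 333 and 251 FPKM in controls (log2 fold change 1.88 ± 0.18). *Myh1*, the IIx isoform, was lower in Ex, with 1374, 1358, 1447, 1559.7 and 1028 FPKM in Ex, against 3141, 2802, 2023, 2107 and 2697 FPKM in mTg (-0.91 ± 0.13), and *Myh4*, the IIb isoform, was at 7252 ± 510.2 FPKM in Ex and 6146 ± 1237 FPKM in mTg (adjusted p = 0.102), a difference that passed with TPM (0.33) or without mTg replicate 1 (0.35). The myosin heavy chain genes thus did not share a direction, slow and IIa being the higher in Ex and IIx the higher in mTg. These coding sequences are similar, and the sources used here do not give the handling of reads that fit several of them. Replicate 2 of mTg was the lowest mTg library for 18 of the 22 slow genes.

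Shares within pairs of slow and fast isoforms, which no scaling of a library can change, gave the same order for most pairs. The pairs reuse genes of the lists, whose members were chosen with earlier results of these data known, so the shares are no separate support. Replicate 2 of mTg was the lowest mTg library for 8 of the 12 shares. Slow troponin T, *Tnnt1*, made up 0.611, 0.963, 0.728, 1.02 and 0.787% of the summed *Tnnt1* and *Tnnt3* in Ex, against 0.440, 0.0690, 0.267, 0.337 and 0.271% in mTg. No Ex library overlapped mTg. For *Tnni1*, slow troponin I, in the sum with *Tnni2* the share was 0.728% ± 0.146 in Ex and 0.240% ± 0.104 in mTg, and for *Myl2* in the sum with *Mylpf* it was 3.91% ± 0.619 in Ex and 1.0001% ± 0.498 in mTg. The slow calcium pump *Atp2a2* held 0.638% ± 0.135 of its sum with *Atp2a1* in Ex and 0.263% ± 0.0671 in mTg. *Myoz2* held 8.17% ± 1.19 of its sum with *Myoz1* in Ex and 2.09% ± 0.536 in mTg. These shares, and that of *Actc1* within its sum with *Acta1* (2.70% ± 1.63 in Ex and 0.351% ± 0.128 in mTg), were higher in Ex at p = 0.00794, the smallest the exact two-sided permutation test can give (adjusted p = 0.0119 over 12 shares). Slow troponin C, *Tnnc1* (0.805% ± 0.212 in Ex and 0.431% ± 0.192 in mTg) and slow myosin-binding protein C, *Mybpc1* (34.0% ± 2.95 in Ex and 26.9% ± 2.51 in mTg) were higher in Ex at p = 0.0159 (exact permutation test, adjusted p = 0.0190). Control means, given without a test, were 0.265% for *Tnnt1*, 0.242% for *Tnni1*, 1.05% for *Myl2* and 0.257% for *Atp2a2*, near those of mTg. They were 0.385% for *Tnnc1*, 2.61% for *Myoz2*, 1.41% for *Actc1* and 18.6% for *Mybpc1*.

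The metabolic pairs ran against these contractile pairs. *Ldhb*, the heart form of lactate dehydrogenase, held 15.2% ± 1.40 of its sum with *Ldha* in Ex and 24.04% ± 3.26 in mTg, and *Ckmt2* 8.26% ± 1.02 of its sum with *Ckm* in Ex and 24.5% ± 1.40 in mTg, both lower in Ex than in mTg (exact permutation p = 0.00794, adjusted p = 0.0119). In controls these shares were 8.20% ± 1.24 and 5.07% ± 0.720, and every control library lay below every Ex and mTg library. The share of the slow essential light chain *Myl3* was 3.13% ± 0.515 in Ex and 3.42% ± 1.38 in mTg (exact permutation p = 0.683), and that of cardiac calsequestrin, *Casq2*, 2.32% ± 0.871 in Ex and 2.75% ± 0.493 in mTg (exact permutation p = 0.349, adjusted p = 0.381). The *Casq2* share of Ex replicate 1 was the highest of all 10 libraries, and without it the share was lower in Ex, Ex minus mTg being -0.797 percentage points (adjusted p = 0.0346). Controls lay below both groups for this share, at 0.680% ± 0.0738.

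**Figure D4:**
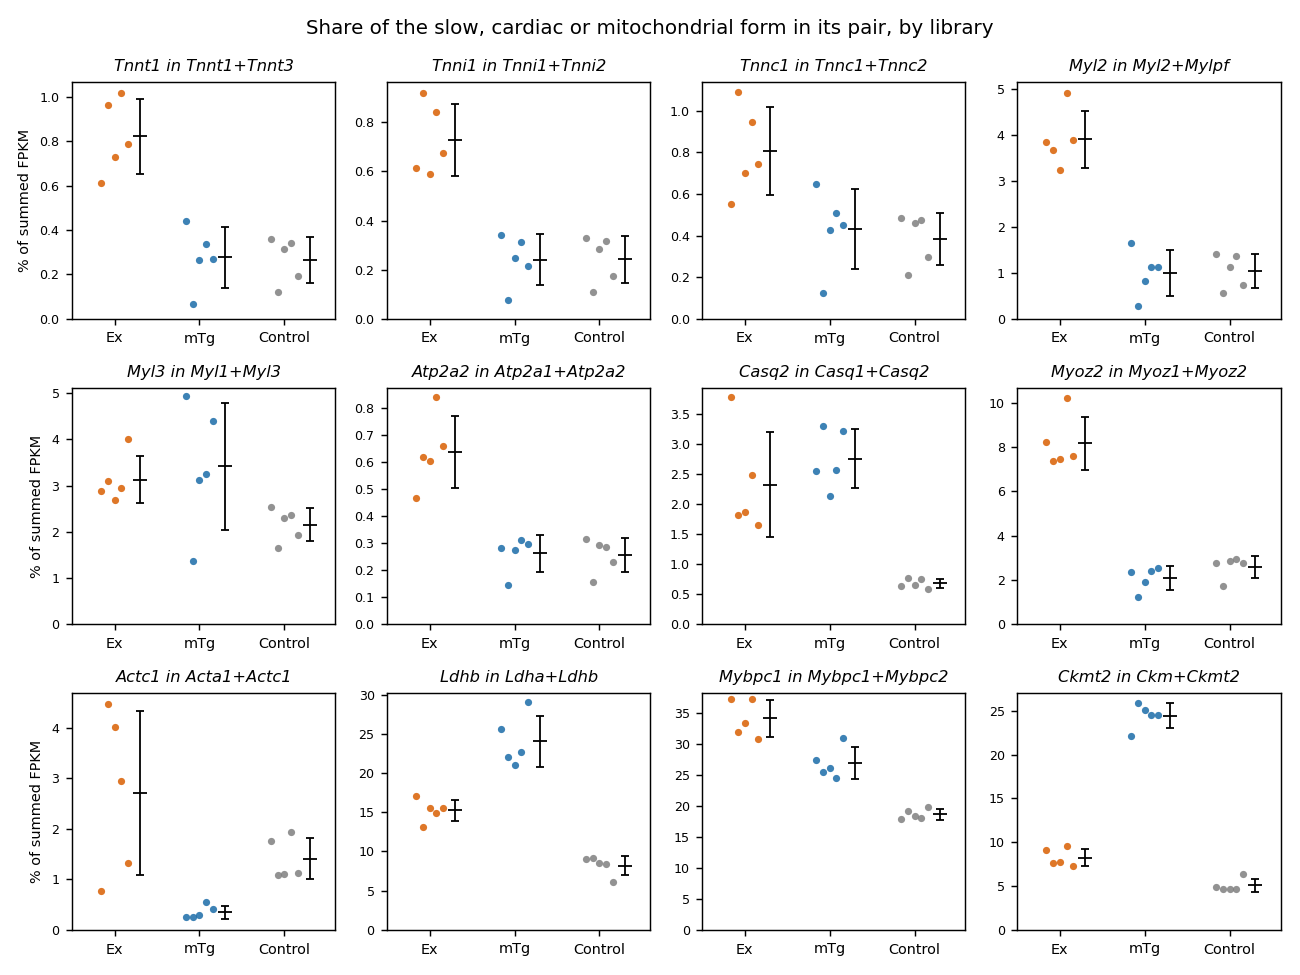
Share of the first isoform in the summed FPKM of its pair, in percent, for 12 pairs, with 1 point per library for Ex, mTg and controls and black bars at the mean and SD. Ex libraries lie above mTg libraries for *Tnnt1* (0.611% to 1.02% in Ex and 0.0690% to 0.440% in mTg) and below them for *Ckmt2* (7.26% to 9.61% in Ex and 22.2% to 25.9% in mTg).

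Genes of fast fibers were also more often higher than lower in Ex than in mTg, 11 of 21 against 1 (median 0.26), with 16 higher under TPM. Their summed level was 109430 to 127390 FPKM in Ex, 95518 to 114250 in mTg and 133830 to 152930 in controls. By this sum, every Ex library lay below every control library. *Actn3*, the α-actinin of fast fibers, was at 2536 to 3106 FPKM in Ex and 1294 to 1610.1 in mTg (0.96 ± 0.081), *Ampd1*, muscle AMP deaminase, at 586 to 641 FPKM in Ex and 282 to 310.2 in mTg (1.03 ± 0.059), and *Myoz3*, the fast calsarcin, at 86.4 to 112 FPKM in Ex and 32.5 to 44.7 in mTg (1.36 ± 0.093). The gene that was lower was *Myh1*.

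Structural genes of the sarcomere were higher in Ex more often than lower. Of 36 Z-disc, M-band and scaffold genes, 22 were higher in Ex and 2 lower (median 0.44). *Pdlim3*, an α-actinin-binding LIM protein (314 ± 17.1 FPKM in Ex and 128 ± 18.8 in mTg, log2 fold change 1.30 ± 0.094), *Klhl41*, which stabilizes nebulin (279 ± 17.7 FPKM in Ex and 140.1 ± 12.7 in mTg, log2 fold change 0.99 ± 0.075), and titin, *Ttn* (129 ± 3.24 FPKM in Ex and 78.0 ± 9.37 in mTg, log2 fold change 0.73 ± 0.079), were higher, and the lower ones were *Myot*, myotilin (638 ± 27.3 FPKM in Ex and 945 ± 95.3 in mTg, log2 fold change -0.56 ± 0.076), and *Mybph*, myosin-binding protein H (205 ± 57.0 FPKM in Ex and 306 ± 57.9 in mTg, log2 fold change -0.60 ± 0.18). Of 25 such genes whose promoter could be read, 6 held the MEF2 element (24.0%) and 7 the MCAT letters (28.0%), against 2.49% and 14.3% of all genes read. The MEF2 element was also held by 3 of 20 slow fiber genes and 4 of 13 fast fiber genes. These shares were not tested. Among 18 LIM and ankyrin-repeat genes linked to load sensing, 7 were higher and 2 lower (median 0.17), led by *Csrp3*, *Fhl1* and *Ablim1*, an actin-binding LIM protein (21.8 ± 3.94 FPKM in Ex and 11.7 ± 0.869 in mTg, log2 fold change 0.83 ± 0.10). *Crip2* was lower (-0.37 ± 0.10). Of 5 actins, 4 were higher, among them *Actg1*, cytoplasmic γ-actin (23.5 ± 3.07 FPKM in Ex and 16.8 ± 3.39 in mTg, log2 fold change 0.47 ± 0.12), and only *Acta2*, smooth muscle actin, was lower (18.3 ± 1.37 FPKM in Ex and 26.03 ± 6.73 in mTg, log2 fold change -0.45 ± 0.14), a call that was lost with TPM (-0.38) or without Ex replicate 3 (-0.42), mTg replicate 4 or mTg replicate 5 (-0.36 each). In the list of 7 embryonic and neonatal sarcomere genes, 2 were higher, none was lower and 5 were not called. The higher ones were *Actc1* and *Ncam1*, the neural cell adhesion molecule (1.70 ± 0.359 FPKM in Ex and 0.610 ± 0.0889 in mTg, log2 fold change 0.74 ± 0.091). *Ncam1* does not encode a sarcomere protein and is counted again among neuromuscular junction genes.

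Of 25 heat shock and co-chaperone genes, 7 were higher in Ex (28.0%) and 5 lower (20.0%), against 20.6% and 20.7% of all genes. The lower share was thus that of all genes, and the lower count was 3 without mTg replicate 3. *Hspb7*, a small heat shock protein of heart and muscle, measured 511, 326, 347, 533 and 299 FPKM in Ex, against 93.2, 74.8, 158, 146 and 179.9 FPKM in mTg and 87.9, 76.6, 111, 118 and 145 FPKM in controls (log2 fold change 1.65 ± 0.23). The cytosolic genes *Hsp90ab1* (0.55 ± 0.075) and *Hspb2* (0.60 ± 0.09) were higher as well. The mitochondrial chaperones *Hspa9* (194 ± 9.65 FPKM in Ex and 379 ± 54.6 in mTg, log2 fold change -0.95 ± 0.09) and *Hspd1* (85.1 ± 6.27 FPKM in Ex and 148 ± 13.4 in mTg, log2 fold change -0.79 ± 0.077) were lower, as was *Hspa5*, the chaperone of the endoplasmic reticulum (-0.48 ± 0.072).

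Calcium handling genes of the sarcoplasmic reticulum were higher in 15 of 31 cases and lower in 4, the lower count being 2 with TPM or without Ex replicate 4 or mTg replicate 1. *Camk2a*, a calcium/calmodulin kinase (97.3 ± 5.73 FPKM in Ex and 50.5 ± 1.71 in mTg, log2 fold change 0.93 ± 0.06), and *Cacng1*, the γ1 subunit of the muscle calcium channel (155 ± 18.8 FPKM in Ex and 68.7 ± 5.32 in mTg, log2 fold change 1.16 ± 0.085), were higher beside *Sln*, and *Hrc*, a calcium-binding protein of the reticulum (452 ± 23.6 FPKM in Ex and 788 ± 175 in mTg, log2 fold change -0.78 ± 0.12), was lower. Of 22 sodium, potassium and chloride channel and pump genes, 7 were higher (31.8%) and 5 lower (22.7%), the lower share being near that of all genes. *Atp1b2*, a β subunit of the sodium pump, was at 111 to 123 FPKM in Ex and 32.5 to 45.2 in mTg (1.59 ± 0.091), and the subunits *Kcnj11* (0.41 ± 0.07) and *Abcc9* (0.52 ± 0.087) of the ATP-sensitive potassium channel were higher together. *Kcnc1* (-0.77 ± 0.11), *Kcnc4* (-0.70 ± 0.086) and the sodium channel subunit *Scn4b* (-0.76 ± 0.11) were lower. Of 17 genes of the neuromuscular junction and of denervation, 7 were higher in Ex and 1 lower. Higher were *Musk*, the agrin-responsive kinase (2.65 ± 0.466 FPKM in Ex and 1.39 ± 0.308 in mTg, log2 fold change 0.61 ± 0.11), the acetylcholine receptor subunit *Chrnb1* (22.9 ± 3.65 FPKM in Ex and 14.99 ± 2.88 in mTg, log2 fold change 0.58 ± 0.13) and *Ncam1*, and the lower one was *Erbb3* (-0.31 ± 0.088).

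Carbohydrate genes were examined by pathway. Of 17 genes of glycogen synthesis and breakdown, 9 were higher in Ex and 1 lower, and of 23 genes of glycolysis and lactate 6 were higher (26.1%) and 5 lower (21.7%), near the shares of all genes, a lower count that became 2 without Ex replicate 1 and 3 without Ex replicate 4 or mTg replicate 1. *Pygm*, muscle glycogen phosphorylase (3052 ± 227 FPKM in Ex and 1885 ± 104 in mTg, log2 fold change 0.69 ± 0.072), *Phkb*, a subunit of phosphorylase kinase (107 ± 5.35 FPKM in Ex and 42.4 ± 4.59 in mTg, log2 fold change 1.32 ± 0.076), and *Gyg*, glycogenin (214 ± 13.7 FPKM in Ex and 153 ± 6.56 in mTg, log2 fold change 0.47 ± 0.063), were higher, and the branching enzyme *Gbe1* was lower (27.1 ± 1.96 FPKM in Ex and 44.8 ± 4.45 in mTg, log2 fold change -0.70 ± 0.079). *Pfkfb3*, which makes the activator of phosphofructokinase, measured 171, 169, 99.5, 92.0 and 77.8 FPKM in Ex, against 32.2, 23.7, 21.3, 47.7 and 22.6 FPKM in mTg (2.001 ± 0.25). *Ldha* (1236 ± 109.8 FPKM in Ex and 816 ± 71.3 in mTg, log2 fold change 0.60 ± 0.082) and *Pkm*, pyruvate kinase (0.34 ± 0.077), were higher, and *Gapdh* was at 1669 ± 129.9 FPKM in Ex and 1895 ± 99.5 FPKM in mTg (adjusted p = 0.0554), a difference of -0.18 that passed with a minimum of 2 FPKM, with median-of-ratios scaling, with voom on reads (-0.18 to -0.19) or without Ex replicate 2 (-0.22). The insulin-responsive glucose transporter *Slc2a4* was higher (0.26 ± 0.067).

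Of 20 genes of AMPK and energy buffering, 7 were higher in Ex and 5 lower. *Gamt*, which makes creatine, was higher (11.02 ± 2.15 FPKM in Ex and 3.02 ± 0.965 in mTg, log2 fold change 1.60 ± 0.15) beside *Prkag3* and *Ampd1*, and the mitochondrial adenylate kinase *Ak3* (33.8 ± 0.932 FPKM in Ex and 82.2 ± 9.60 in mTg, log2 fold change -1.25 ± 0.076) was lower beside *Ckmt2*. Of 10 polyamine and carnosine genes, 3 were higher and 3 lower, the lower count being 1 without Ex replicate 3. The higher ones were *Smox*, *Odc1*, the rate-limiting enzyme of polyamine synthesis, with 36.4, 49.8, 58.7, 71.1 and 64.1 FPKM in Ex, against 17.3, 16.95, 19.99, 20.8 and 18.7 FPKM in mTg (1.498 ± 0.14), and *Sms*, spermine synthase, with 19.999 to 28.6 FPKM in Ex and 8.23 to 9.36 in mTg (1.33 ± 0.093). The enzymes that make and that oxidize spermine were thus both higher in Ex, and their ranges in controls were 35.5 to 94.9 FPKM for *Odc1* and 26.8 to 34.5 FPKM for *Sms*.

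**Figure D5:**
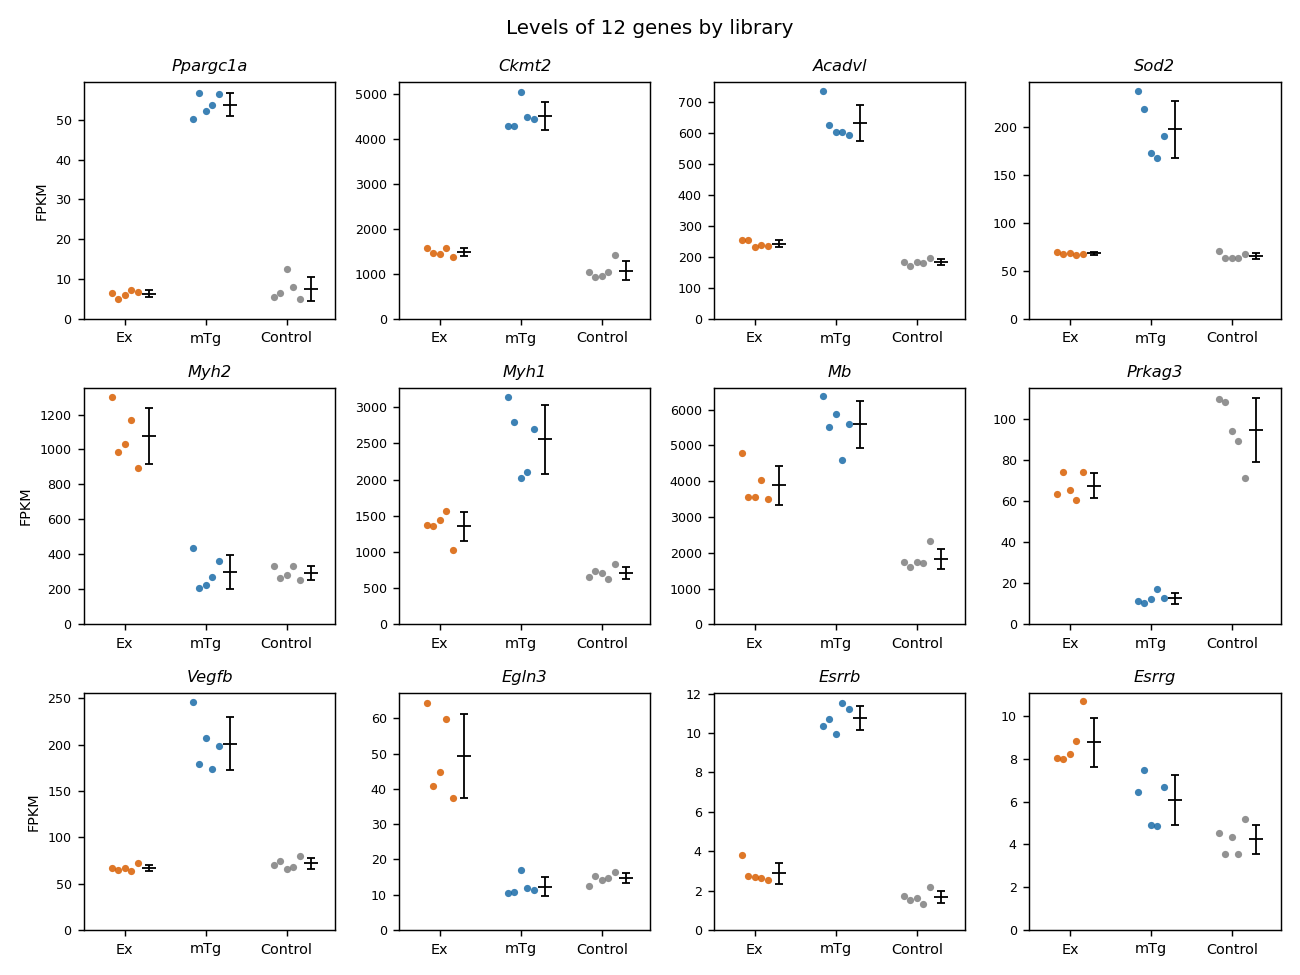
FPKM in each of the 5 Ex, 5 mTg and 5 control libraries (points) with the group mean and SD (black bars) for 12 genes named in the text, each panel with its own axis from 0. The 5 Ex libraries of *Egln3* sit at 37.5 to 64.4 FPKM, above the mTg libraries (10.4 to 16.9 FPKM), and those of *Acadvl* (233 to 255 FPKM) below them (594 to 736 FPKM).

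Atrophy and stress programs were examined next. Of 25 FoxO and atrophy genes, 11 were higher in Ex and 2 lower. *Mstn*, myostatin, the inhibitor of muscle growth, measured 20.2, 19.8, 21.2, 17.2 and 25.4 FPKM in Ex, against 7.06, 12.1, 8.34, 6.51 and 6.69 FPKM in mTg and 29.4, 28.2, 29.1, 32.5 and 27.7 FPKM in controls (1.27 ± 0.14). *Cdkn1a*, the cell cycle inhibitor p21 (16.3 ± 4.36 FPKM in Ex and 5.32 ± 1.62 in mTg, log2 fold change 1.45 ± 0.19), and *Sesn3*, sestrin 3 (2.22 ± 0.407 FPKM in Ex and 0.738 ± 0.244 in mTg, log2 fold change 0.89 ± 0.11), were higher, and *Gadd45b* was lower (13.004 ± 0.883 FPKM in Ex and 18.01 ± 1.47 in mTg, log2 fold change -0.44 ± 0.071). Of 21 ATF4 and amino acid stress genes, 5 were higher (23.8%) and 4 lower (19.0%), near the shares of all genes, the lower count being 2 with TPM. *Chac1*, which degrades glutathione, measured 47.4, 29.6, 33.3, 16.9 and 57.8 FPKM in Ex, against 7.33, 18.8, 5.70, 4.13 and 3.05 FPKM in mTg (2.24 ± 0.38), with mTg replicate 2 far above the other mTg libraries and within the Ex range. *Ddit3*, the stress factor CHOP, was lower (13.9 ± 1.001 FPKM in Ex and 28.04 ± 6.27 in mTg, log2 fold change -0.93 ± 0.13), so the list had no common direction.

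Of 27 growth factor, mTORC1 and myokine genes, 6 were higher in Ex (22.2%) and 7 lower (25.9%), near the shares of all genes. *Fndc5*, the precursor of irisin, measured 57.0, 46.4, 49.5, 50.6 and 52.2 FPKM in Ex, against 173, 149, 137, 135 and 161 FPKM in mTg and 37.7, 35.7, 36.1, 37.0 and 39.1 FPKM in controls (-1.54 ± 0.081). *Apln*, apelin (1.22 ± 0.561 FPKM in Ex and 3.93 ± 0.461 in mTg, log2 fold change -1.18 ± 0.14), and *Akt1* (23.8 ± 1.05 FPKM in Ex and 42.2 ± 2.59 in mTg, log2 fold change -0.80 ± 0.063) were lower, and *Grb10*, an adaptor that restrains insulin signaling (10.03 ± 0.910 FPKM in Ex and 5.42 ± 0.590 in mTg, log2 fold change 0.78 ± 0.082), and *Tsc1*, an inhibitor of mTORC1 (0.39 ± 0.07), were higher.

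Among 27 myogenic, MEF2, TEAD and related regulators, 12 were higher in Ex and none was lower, with at most 2 lower when a library was left out. These included *Nfatc2*, a calcineurin-dependent factor (2.20 ± 0.346 FPKM in Ex and 0.826 ± 0.135 in mTg, log2 fold change 0.80 ± 0.086), *Tead4*, which binds MCAT letters (2.81 ± 0.372 FPKM in Ex and 1.32 ± 0.192 in mTg, log2 fold change 0.71 ± 0.086), and *Sox6*, a repressor of slow fiber genes (16.7 ± 1.49 FPKM in Ex and 11.1 ± 1.07 in mTg, log2 fold change 0.56 ± 0.079). *Myod1* was at 8.31 ± 1.48 FPKM in Ex and 10.7 ± 3.12 FPKM in mTg (adjusted p = 0.165) and lower in Ex without mTg replicate 2 (-0.41), and *Mef2a* at 26.8 ± 1.77 FPKM in Ex and 26.4 ± 4.89 FPKM in mTg (adjusted p = 0.812). Of 15 AP-1, immediate early and NR4A genes, 3 were higher (20.0%) and 2 lower (13.3%), below the shares of all genes. *Nr4a1* was higher, with 58.9, 130.5, 114, 69.1 and 109 FPKM in Ex, against 54.9, 37.0, 45.1, 72.1 and 42.3 FPKM in mTg (0.90 ± 0.22), while its relative *Nr4a3*, which reached the minimum only through mTg, had 0.217, 0.602, 0.278, 0.842 and 0.249 FPKM in Ex, against 1.29, 1.24, 2.28, 2.32 and 3.01 FPKM in mTg and 0.204, 1.12, 8.15, 1.60 and 2.42 FPKM in controls (-1.06 ± 0.16). Of 16 clock genes, 3 were higher (18.75%) and 4 lower (25%), near the shares of all genes. The higher ones included *Nr1d1*, the repressor REV-ERBα (99.9 ± 14.1 FPKM in Ex and 59.6 ± 15.8 in mTg, log2 fold change 0.76 ± 0.16), and *Clock* (0.46 ± 0.10). The lower ones included *Per3* (-0.77 ± 0.23), *Bhlhe41* (-0.45 ± 0.092) and *Tef* (-0.43 ± 0.10). The time of day of tissue collection may differ between Ex and mTg, and its part in these differences was not tested.

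The whole muscle holds vessels, nerve, connective tissue and blood cells beside fibers, and in such RNA fewer cells of a type and less RNA per cell cannot be told apart. Of 22 angiogenic and hypoxia factors, 11 were lower in Ex and 5 higher, the higher count being 3 without Ex replicate 2. Some members are counted in other lists too. On the lower side, *Esrra* is also in the list of nuclear receptors and *Flt1* in that of endothelial markers. A member on the higher side is also in the FoxO and atrophy list. *Vegfb* measured 66.5, 64.5, 66.4, 63.5 and 72.7 FPKM in Ex, against 246, 179, 207, 174 and 199 FPKM in mTg (-1.57 ± 0.088), and *Vegfa*, the main endothelial growth factor, 72.0, 70.1, 63.0, 79.3 and 70.8 FPKM in Ex, against 96.8, 109, 142, 129 and 144 FPKM in mTg (-0.78 ± 0.11). *Epas1*, HIF2α, was lower (41.6 ± 2.85 FPKM in Ex and 70.6 ± 10.9 in mTg, log2 fold change -0.74 ± 0.094), and *Egln3*, a HIF prolyl hydroxylase, was higher (49.4 ± 11.9 FPKM in Ex and 12.3 ± 2.63 in mTg, log2 fold change 1.91 ± 0.15). Endothelial markers were lower in 8 of 14 cases and higher in none, with a summed level of 243 to 285 FPKM in Ex, 284 to 372 in mTg and 189 to 227 in controls. *Pecam1* (30.6 ± 1.51 FPKM in Ex and 40.7 ± 4.45 in mTg, log2 fold change -0.40 ± 0.078), *Emcn* (-0.72 ± 0.10) and the VEGF receptor gene *Flt1* (-0.57 ± 0.086) were among them. Smooth muscle and pericyte markers were lower in 6 of 12 cases and higher in 1, with *Myh11*, smooth muscle myosin, at -0.50 ± 0.10, and the lower count was 3 with TPM or without mTg replicate 4 or mTg replicate 5. Their summed level was 1248 to 1434 FPKM in Ex, 1196 to 1510 in mTg and 1154 to 1216 in controls. This sum includes *Des*, desmin, named here because it is also among the 12 markers that define skeletal muscle. It therefore does not measure smooth muscle or pericytes alone. The part of vessel content in the differences above was not tested.

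Interferon response genes and immune cell markers were examined separately. Of 24 interferon response and antigen presentation genes, 10 were lower in Ex and 1 higher, among them *B2m* (132 ± 16.3 FPKM in Ex and 186 ± 23.3 in mTg, log2 fold change -0.49 ± 0.10) and *Gbp2* (-0.52 ± 0.10). Of 12 tested macrophage markers, 3 were lower, a share near that of all genes, and none higher, with a summed level of 93.7 to 162 FPKM in Ex, 116 to 195 in mTg and 92.2 to 134 in controls. *Mpeg1* was at 1.003 ± 0.388 FPKM in Ex and 2.33 ± 0.289 FPKM in mTg (-0.75 ± 0.11) and *Cd68* at 3.95 ± 1.05 FPKM in Ex and 4.81 ± 0.760 FPKM in mTg (adjusted p = 0.178). Only 1 of 12 lymphocyte and neutrophil markers was among the listed genes, and the others had no value to analyse. It was the pan-leukocyte gene *Ptprc*, which was lower (0.637 ± 0.116 FPKM in Ex and 1.27 ± 0.213 in mTg, log2 fold change -0.47 ± 0.081).

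Collagens and other matrix genes were higher in 4 of 31 cases and lower in 1, below the shares of all genes, and the higher count was 7 with TPM or without mTg replicate 4 and 9 without Ex replicate 5. *Postn*, periostin, measured 11.3, 14.5, 14.1, 16.9 and 5.49 FPKM in Ex, against 3.27, 4.005, 5.03, 5.93 and 5.42 FPKM in mTg (1.18 ± 0.23), and *Ctgf* was higher (0.94 ± 0.20). *Col1a1* was at 64.3 ± 24.7 FPKM in Ex and 83.8 ± 21.9 FPKM in mTg (adjusted p = 0.179) and *Col3a1* at 88.6 ± 32.6 FPKM in Ex and 104 ± 27.7 FPKM in mTg (adjusted p = 0.369). Fibroblast markers had 1 of 11 members higher, *Pi16* (0.68 ± 0.15), and none lower, with a summed level of 843 to 1160 FPKM in Ex, 800 to 1173 in mTg and 905 to 1197 in controls.

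Adipocyte markers summed to 955 to 1349 FPKM in Ex, 605 to 939 in mTg and 1259 to 1609 in controls, with 1 of 8 higher in Ex and 2 lower. The gene with the larger part of the sum in Ex was *Car3*, carbonic anhydrase 3, a gene of fat that slow fibers also express, with 928, 588, 538, 507 and 808 FPKM in Ex, against 144, 324, 164, 168 and 163 FPKM in mTg (1.83 ± 0.21). *Fabp4*, a gene of fat and capillary endothelium, was lower (347 ± 17.97 FPKM in Ex and 449 ± 60.1 in mTg, log2 fold change -0.36 ± 0.086), as was *Pparg* (-0.40 ± 0.11). Satellite cell markers summed to 61.6 to 67.6 FPKM in Ex, 45.7 to 56.2 in mTg and 56.2 to 61.9 in controls, with 3 of 7 higher and 2 lower. The lower ones were *Heyl* and *Vcam1*, the lowest log2 fold change of the list being -0.43, so the list had no common direction. *Cdh15*, M-cadherin (8.68 ± 0.263 FPKM in Ex and 4.17 ± 0.657 in mTg, log2 fold change 0.92 ± 0.086), *Itga7*, an integrin that fibers also express (31.6 ± 3.18 FPKM in Ex and 22.3 ± 2.19 in mTg, log2 fold change 0.48 ± 0.083), and *Pax7*, the defining factor of these cells, which reached the minimum only through Ex (0.682 ± 0.145 FPKM in Ex and 0.394 ± 0.0831 in mTg, log2 fold change 0.27 ± 0.076), were higher. Of 8 Schwann cell markers 1 was higher, *Ncmap* (0.24 ± 0.076), which reached the minimum only through Ex and lost the call without Ex replicate 1. In the list of 6 erythroid and tendon genes, the tendon factor *Scx* was higher (2.91 ± 0.817 FPKM in Ex and 1.18 ± 0.318 in mTg, log2 fold change 0.83 ± 0.14) and *Alas2*, the erythroid heme enzyme, was lower (1.28 ± 0.239 FPKM in Ex and 3.16 ± 1.41 in mTg, log2 fold change -0.80 ± 0.19).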

How the data were processed

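RNA-seq of Quad (5 libraries each of Ex, mTg and controls) was analysed from the values per gene as deposited by the authors, which are FPKM. Per the submitters' processing notes, reads were aligned to mm10 with STAR, and DESeq2 was run as an application of version 1.1.0. Neither the counting tool, nor its use of strand, nor the annotation was given in the sources used here. The authors' further deposited tables hold their fold changes and p-values for genes changed against controls, and these were not used. The FPKM repeated in those tables showed that the mTg columns were scaled in a separate normalization with the controls. A constant of 0.998 relating it to that of Ex was estimated as the geometric mean of the control ratios, which ran from 0.993 to 1.009. Since each FPKM is a whole number of reads times a constant of gene and library, whole reads could be recovered for 100% of 12529 genes (tolerance 0.01 reads). Of the symbols, 21 had become dates, which were tested and are not named. Libraries of the same group differed by more than counting noise (chi-square per gene from 4.56 to 27.0), so each was counted once.

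Genes averaging at least 0.5 FPKM over the Ex and mTg libraries were tested on log2(FPKM + 1) values by limma 3.58.1 under R 4.3.3, two-sided, as a linear model whose moderated variances follow a trend with the mean. P-values were adjusted over 11704 genes after Benjamini and Hochberg, with a threshold of 0.05. A voom fit on the recovered reads called 4812 genes. Named genes were *Ppargc1a*, the 15 with the largest fold change in each direction among called genes whose groups did not overlap, the 10 with the largest difference in FPKM, the 6 per direction with controls strictly between, up to 3 per list and direction with the smallest p, and central members of lists, apart from a few that are not reported here. Members and lists were chosen with earlier results of these data known. Shares of isoforms and library totals were compared with exact two-sided permutation tests. Scripts were tested on simulated data. Alternatives were pseudocounts of 0.1 and 0.01, no minimum or a minimum of 2 FPKM, TPM, median-of-ratios scaling, the joint scale, a fit on all 15 libraries, no trend, voom, a replicate block and leaving out each library. Promoters were taken from RefSeq and positions from GENCODE M21, both GRCm38.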

Additional observations from a re-analysis of the deposited data

Results flagged for a closer look

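In 28 of 444 groups of 5 values, the highest or lowest library stood far from the other 4 (gap over range above 0.71, Dixon's criterion). Chance flags about 1 in 20 groups. Of these, 7 were in mTg replicate 2 and 6 in Ex replicate 1. In Ex replicate 1, *Sln* at 212 FPKM against 55.8 to 87.8 FPKM, *BC049352* at 2.39 FPKM against 0.533 to 0.962 FPKM, *Esrrb* at 3.82 FPKM against 2.51 to 2.74 FPKM, *Hspa9* at 211 FPKM against 187 to 194 FPKM and *Slc16a1* at 10.1 FPKM against 8.75 to 9.08 FPKM stood above the other 4 Ex libraries. In Ex replicate 1, *Atp1b2* at 111 FPKM against 122 to 123 FPKM stood below the other 4 Ex libraries. In mTg replicate 2, *Sln* at 10.6 FPKM against 3.73 to 5.57 FPKM, *Chac1* at 18.8 FPKM against 3.05 to 7.33 FPKM, *Abcc9* at 37.4 FPKM against 26.6 to 29.3 FPKM and *Car3* at 324 FPKM against 144 to 168 FPKM stood above the other 4 mTg libraries. In mTg replicate 2, *Myoz2* at 17.3 FPKM against 35.6 to 40.6 FPKM, *Cox10* at 39.5 FPKM against 46.9 to 49.0 FPKM and the *Atp2a2* share at 0.146% against 0.274% to 0.314% stood below the other 4 mTg libraries. In mTg replicate 4, *Slc25a25* at 17.5 FPKM against 2.75 to 3.51 FPKM stood above the other 4 mTg libraries. In mTg replicate 4, *Cds1* at 6.80 FPKM against 8.03 to 8.42 FPKM stood below the other 4 mTg libraries. In mTg replicate 3, *Ckmt2* at 5054 FPKM against 4284 to 4482 FPKM, *Rpl10* at 130.1 FPKM against 98.7 to 107 FPKM, *Alas1* at 142 FPKM against 117 to 120.1 FPKM and *Egln3* at 16.9 FPKM against 10.4 to 11.9 FPKM stood above the other 4 mTg libraries. In Ex replicate 2, *Rxrg* at 24.3 FPKM against 21.1 to 21.9 FPKM, *Slc25a11* at 186 FPKM against 168 to 170.1 FPKM and *Ctgf* at 18.7 FPKM against 9.52 to 12.1 FPKM stood above the other 4 Ex libraries. In Ex replicate 3, *Tead4* at 2.17 FPKM against 2.85 to 3.09 FPKM stood below the other 4 Ex libraries. In mTg replicate 1, *Acadvl* at 736 FPKM against 594 to 627 FPKM stood above the other 4 mTg libraries. In Ex replicate 4, *Gadd45b* at 14.6 FPKM against 12.5 to 12.7 FPKM and *Pparg* at 3.34 FPKM against 1.94 to 2.27 FPKM stood above the other 4 Ex libraries. In Ex replicate 5, *Myod1* at 10.9 FPKM against 7.33 to 8.14 FPKM stood above the other 4 Ex libraries. In Ex replicate 5, *Myh11* at 6.65 FPKM against 7.66 to 8.03 FPKM stood below the other 4 Ex libraries.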

How the results depend on the processing

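The count of 4832 genes that differed lay between 4155 (a minimum of 2 FPKM, which tests fewer genes) and 5182 (fit on all 15 libraries) under the other settings, and between 4256 and 4911 when a library was left out. Of 202 genes named by the rule and past the test, *Heyl* and *Vcam1* not counted, 194 could be fitted under all 21 other settings. Of these, 191 kept call and direction, the exceptions being *Ckm*, *Tnni2* and *Acta2*. The other 8 were below the minimum of 2 FPKM, and 7 of them kept both under the remaining settings, the exception being *Ncmap*. The number past 1.5-fold depended on how low values were treated. It was 1278 as reported, 1835 and 1912 with pseudocounts of 0.1 and 0.01 and 1918 with voom on reads, and on the higher side alone it was 490 as reported, 791 and 834 with these pseudocounts and 816 with voom. TPM moved the split to 3029 higher and 1910 lower. Replicate numbers did not pair the libraries (correlations of deviations between same-numbered Ex and mTg libraries from -0.19 to 0.045). With the replicate block, 4422 genes differed, 2150 higher and 2272 lower. When a library was left out, the *Casq2* share difference ranged from -0.797 (without Ex replicate 1, past the test) to -0.266 percentage points, and that of *Myl3*, which passed no test, from -0.800 to 0.0900 (without mTg replicate 1). Genes with values near the minimum rest on few reads, and mTg libraries had fewer reads than Ex libraries.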
